A study of Homo sapiens with 6 samples.

Results

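COX4I1, the gene targeted by CRISPR in these cells, sits on the long arm of human chromosome 16 at band q24, and 7 genes along the same stretch were examined with it, namely EMC8, GINS2, KIAA0513, ZDHHC7, CRISPLD2, USP10 and KLHL36. The 8 genes were taken by their symbols out of 19845 rows of gene counts, whatever their values, and 7 of the 8 were among the 11861 genes that passed the filter on low counts and were tested. CRISPLD2 was the gene that did not pass.

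RNA was sequenced from 6 cultures of Molm13, a human acute myeloid leukemia line with a rearranged MLL gene. All cultures expressed the Cas9 nuclease, received a lentivirus made with the ipUSEPR vector and were selected in puromycin. In 3 of them the vector carried a guide RNA against non-essential sequence (sgCtrl #1, #2 and #3), and in the other 3 a guide against COX4I1 (sgCOX4I1 #1, #2 and #3). Nothing in the labels says that a single clone was grown out, and the counts do not tell edited from unedited transcripts, so a share of edited cells and the amount of RNA per edited cell cannot be told apart. According to the study, each group of these RNA libraries stood for different guide sequences, so the spread within a group takes in differences between guides. Nothing says that any guide had a second culture, and the p-values measure only the spread between these 6 samples. Total counts were between 17241014 and 30861943 per library, and the sgCOX4I1 group held both the shallowest library (#2) and the deepest (#3). Genes listed in advance for a myeloid leukemia line, not all of them specific to myeloid cells, were present in every library. PTPRC was at 241 to 274 CPM, CD33 at 48.2 to 59.4 CPM and HOXA9 at 51.6 to 65.5 CPM (CPM is counts per 1000000 counts of the TMM-scaled library). HBB, EPCAM and ALB, markers of red cells, epithelium and hepatocytes, had 0 counts in all 6.

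COX4I1 encodes a nuclear subunit of Complex IV (cytochrome c oxidase), the last enzyme of the mitochondrial electron transport chain, which hands electrons from cytochrome c to oxygen. Its closest neighbour, EMC8, lies head to head with it on the opposite strand and encodes a subunit of the ER membrane protein complex, which inserts membrane proteins. Genes arranged in this way often start from a common promoter region. The remaining neighbours have unrelated roles. GINS2 is part of the helicase that opens DNA during replication, ZDHHC7 attaches palmitate to proteins in the Golgi, USP10 removes ubiquitin from proteins such as p53 and binds the stress granule proteins G3BP1 and G3BP2, KLHL36 belongs to the BTB-kelch family of adaptors for cullin-3 ubiquitin ligases, CRISPLD2 is a secreted cysteine-rich protein, and KIAA0513 is little characterised.

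The stretch between COX4I1 and EMC8 is shown because the position of these 2 start sites sets EMC8 apart from the other neighbours. It is the RefSeq promoter window of COX4I1 on GRCh38.p14, chr16:85799445-85799744, 300 bases of the plus strand, and capitals mark each CCGGAA on either strand (TTCCGG where the minus strand holds it), the core bound by ETS family factors.
COX4I1 and EMC8 promoter: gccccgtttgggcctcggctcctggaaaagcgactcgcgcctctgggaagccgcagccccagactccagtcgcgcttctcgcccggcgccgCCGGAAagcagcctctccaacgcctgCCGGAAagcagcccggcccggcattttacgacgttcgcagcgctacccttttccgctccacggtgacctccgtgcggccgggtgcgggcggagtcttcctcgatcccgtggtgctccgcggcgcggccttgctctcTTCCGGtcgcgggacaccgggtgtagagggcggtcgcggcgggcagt
In RefSeq, COX4I1 starts at base 85799695, which is position 251 of the printed window, and runs to the right, and EMC8 starts at base 85799544, position 100, and runs to the left on the minus strand, with 150 bases between them. CCGGAA occurred at positions 92 to 97 and 118 to 123 on the plus strand and at positions 254 to 259 on the minus strand, so that all 3 matches fell into the windows of both genes. By comparison, 17.2% of 35116 RefSeq promoter windows of this length held at least 1 CCGGAA on either strand. The windows of ZDHHC7, GINS2 and USP10 held 2, 1 and 1 matches, and those of KIAA0513, CRISPLD2 and KLHL36 held 0. None of the windows of the 8 genes held TATAAA (11.5% of all windows) or GCGCATGC, a core of the NRF1 site (3.05%), and CCAAT (34.6%) occurred once each in those of GINS2 and KLHL36. G and C made up 71.0% of the COX4I1 window and 73.3% of the EMC8 window, within the range of 61.0% to 80.0% over the windows of the 8 genes. In GENCODE 44 the gene bodies overlap, with COX4I1 (ENSG00000131143.10) at chr16:85798633-85807068 on the plus strand and EMC8 (ENSG00000131148.9) at chr16:85771758-85799608 on the minus strand, and the exons of the 2 genes share 4 bases, 0.0831% of those of COX4I1 and 0.0995% of those of EMC8. The library kit was directional, and the strand setting used in counting is not given in the sources used here. The annotation also names 2 COX4I1 pseudogenes, of which 0 had a row in the count table.

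Per kilobase of exon, COX4I1 was by far the most abundant of the 8 mRNAs in the sgCtrl libraries, at 102 ± 5.48 CPM per kb (SD, n = 3). USP10 followed at 20.4 ± 1.12, ZDHHC7 at 18.6 ± 0.634, EMC8 at 10.9 ± 0.772, GINS2 at 6.64 ± 0.321, KLHL36 at 6.09 ± 0.248 and KIAA0513 at 3.54 ± 0.246 CPM per kb (SD, n = 3 each). CRISPLD2 was lowest, at 0.0342 ± 0.0238 CPM per kb. The ranges over the sgCtrl libraries did not overlap between any of these genes and the next in order. In the sgCOX4I1 libraries COX4I1 still had the highest level per kb, at 44.4 ± 29.4 CPM per kb, with 27.3 CPM per kb in the lowest library, ZDHHC7 and USP10 changed places with overlapping ranges, and the ranges of GINS2 and KLHL36 overlapped as well. These levels depend on the summed exon length of all annotated transcripts, and the true length of the expressed ones was not measured.

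COX4I1 mRNA was lower in all sgCOX4I1 libraries than in any sgCtrl library, and lay much lower in #1 and #3 than in #2. The sgCtrl libraries held 9411, 9239 and 9415 counts, or 512.7, 501.5 and 462.4 CPM. The sgCOX4I1 libraries held 2956, 6495 and 4158 counts, or 131.6, 377.4 and 132.9 CPM. The groups did not overlap, the sgCtrl libraries lay close together, and sgCOX4I1 #2 stood between the other sgCOX4I1 libraries and the sgCtrl group. Against the sgCtrl mean this left 26.7% of the mRNA in #1, 76.7% in #2 and 27.0% in #3. On the log2 scale the fold change was -1.21 (SE 0.29, 95% interval -1.84 to -0.57), with an unadjusted p of 0.00113 and an adjusted p of 0.0512 (quasi-likelihood test of edgeR, Benjamini-Hochberg method over the 11861 genes), so COX4I1 did not pass the threshold of 0.05. By p it ranked 257 among all genes, and 18 genes had a lower log2 fold change. The two-sided exact permutation test of the 6 CPM values gave p = 0.1, the smallest that 3 libraries against 3 can give. The call turned on single libraries and on the fit. COX4I1 passed without sgCOX4I1 #2 (log2 fold change -1.89, edgeR adjusted p = 3.37e-06), without sgCtrl #1 (-1.18, 0.0193) and without sgCtrl #3 (-1.25, 0.0388). It also passed with no filter on low counts (-1.20, edgeR adjusted p = 2.05e-04) and by limma-voom (-1.40, adjusted p = 0.0291). It did not pass without sgCtrl #2 (-1.19, edgeR adjusted p = 0.272), without sgCOX4I1 #1 (-0.95, 0.0773) or without sgCOX4I1 #3 (-0.95, 0.125). Nor did it pass without TMM factors (edgeR adjusted p = 0.0598), with DESeq2 size factors in edgeR (0.0519) or with at least 10 counts in every library (0.0522). DESeq2 did not call it either (-1.20, adjusted p = 0.247).

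EMC8, head to head with COX4I1, showed no comparable difference. Its mRNA was at 47.3, 43.2 and 41.3 CPM in the sgCtrl libraries and at 45.0, 46.1 and 40.6 CPM in the sgCOX4I1 libraries. The groups overlapped, and of the libraries with the least COX4I1 mRNA, sgCOX4I1 #3 had the lowest EMC8 value of the 6 and sgCOX4I1 #1 lay within the sgCtrl range. The means were 43.9 ± 3.11 and 43.9 ± 2.93 CPM (SD, n = 3 each), with a log2 fold change of -0.0033 (SE 0.088, edgeR adjusted p = 0.988) and a 95% interval of -0.19 to 0.19 that leaves out a fall of the size seen for COX4I1. The sign of so small a value turned with the scaling: without TMM factors it was 0.0098. The two-sided exact permutation p was 1.

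The ratio of COX4I1 to EMC8 counts within a library does not depend on how libraries are scaled against each other. It was 10.8, 11.6 and 11.2 COX4I1 counts per EMC8 count in sgCtrl #1, #2 and #3, and 2.92, 8.19 and 3.28 in sgCOX4I1 #1, #2 and #3. All sgCOX4I1 ratios were below all sgCtrl ratios, and #2 was again the closest to the sgCtrl group. The mean log2 ratio was 3.49 ± 0.050 in sgCtrl and 2.10 ± 0.81 in sgCOX4I1 (SD, n = 3 each), a difference of -1.39 (p = 0.1 in a two-sided exact permutation test, which this design cannot go below). Set against the other neighbours in the same way, the log2 ratio of COX4I1 differed by -1.52 to ZDHHC7, -1.36 to USP10 and -1.27 to KLHL36, with no overlap between groups, and by -1.24 to GINS2 and -1.10 to KIAA0513, where sgCOX4I1 #2 fell within the sgCtrl range.

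**Figure D1:**
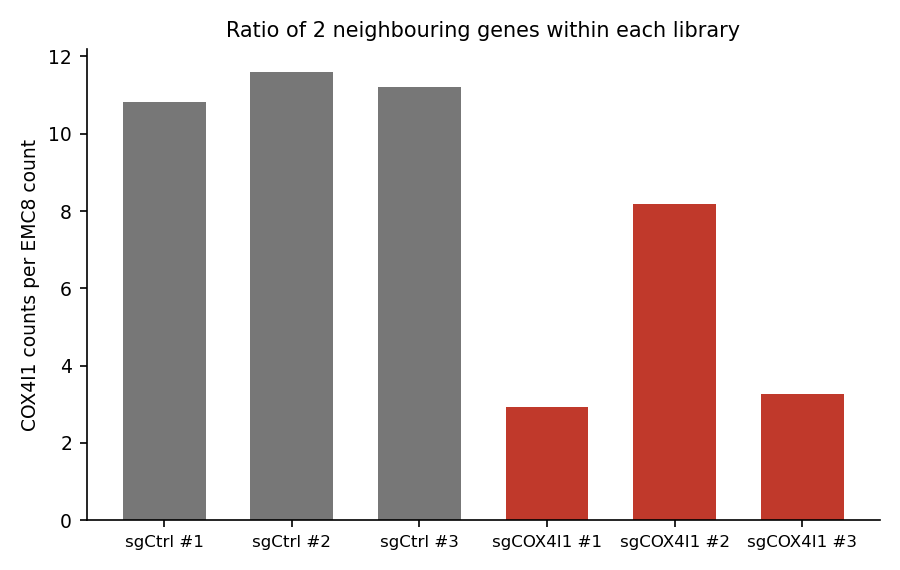
COX4I1 counts per EMC8 count (vertical axis, linear from 0) in each of the 6 libraries, 1 bar per library, grey for sgCtrl and red for sgCOX4I1. The grey bars stand between 10.8 and 11.6, the red bars at 2.92 and 3.28 for #1 and #3 and at 8.19 for #2.

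Over all 8 genes, 0 of the 7 tested members passed an adjusted p of 0.05 in edgeR, where 2.08% of all tested genes did (126 higher and 121 lower) and 0.202% also changed at least 2-fold. At an unadjusted p under 0.05 there were 2 of 7, COX4I1 and KIAA0513, against 17.3% of all genes, and DESeq2 called 0 as well, with 2 at an unadjusted p under 0.05. Groups did not overlap for 4 of the 7, against 21.6% of all tested genes, and for 3 of those 4 the sgCOX4I1 libraries were the lower ones (COX4I1, KIAA0513 and KLHL36), against 10.4% of all genes. With so few genes these counts describe the stretch and no test was made of them.

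**Figure D2:**
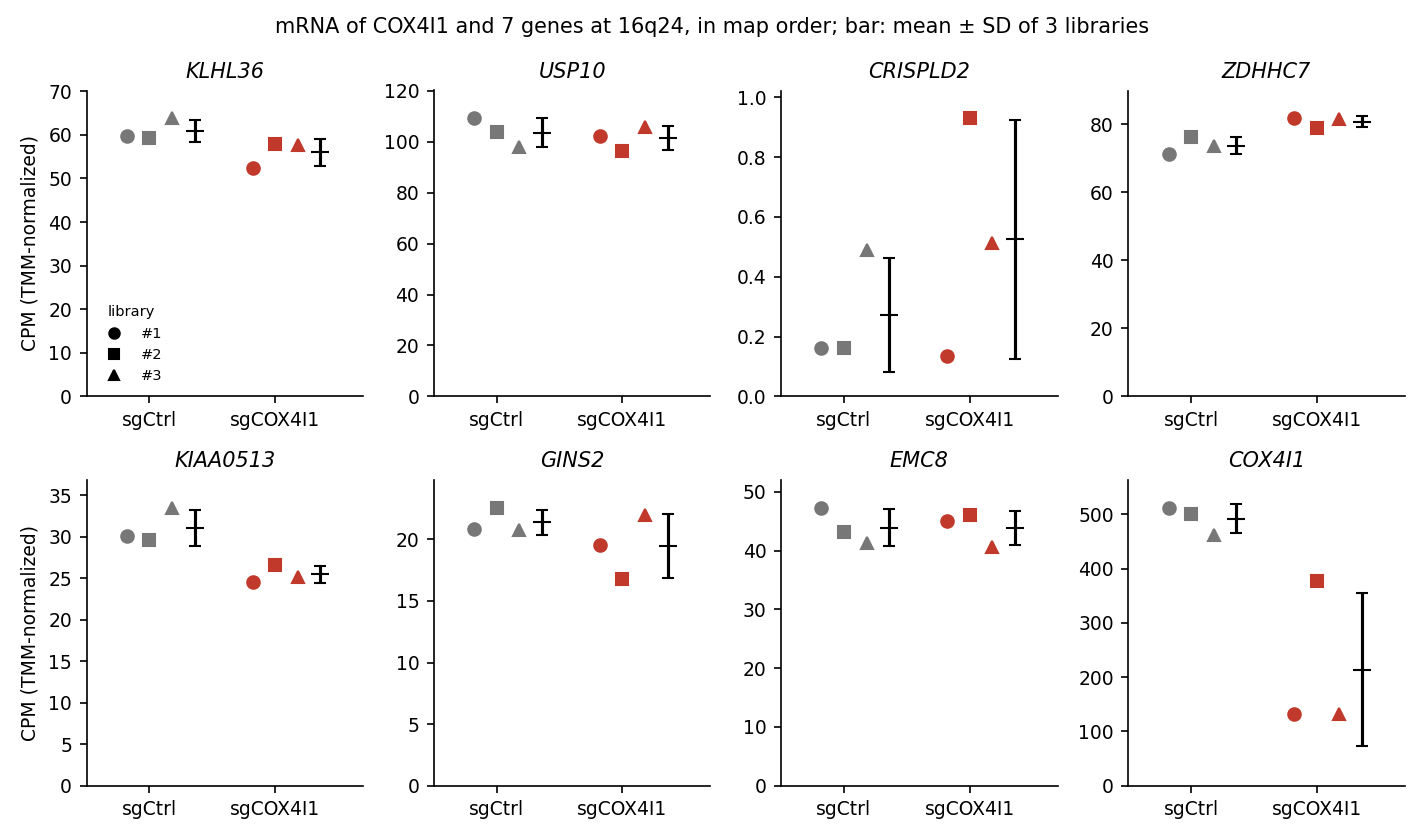
CPM after TMM scaling (vertical axes, linear from 0, each with its own range) of the 8 genes in map order from the centromere side, with a circle, square and triangle for libraries #1, #2 and #3, grey for sgCtrl and red for sgCOX4I1, and the black bar giving mean ± SD of 3 libraries. COX4I1 is the gene whose red symbols lie far below the grey ones, with sgCOX4I1 #2 at 377.4 CPM, while the EMC8 symbols of both colours share the range from 40.6 to 47.3 CPM.

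KIAA0513 (ENSG00000135709.14, chr16:85027782-85094230, plus strand), whose start lies 771 kb toward the centromere from that of COX4I1, had the second largest difference among the tested members. It was at 30.1, 29.5 and 33.5 CPM in the sgCtrl libraries and at 24.6, 26.6 and 25.1 CPM in the sgCOX4I1 libraries. The groups did not overlap, and sgCOX4I1 #2, the library with the most COX4I1 mRNA of its group, also had the most KIAA0513. Relative to the sgCtrl mean the libraries stood at 79.2%, 85.8% and 81.0%. The log2 fold change of -0.29 (SE 0.093, 95% interval -0.49 to -0.088) had an unadjusted p of 0.00815 and an adjusted p of 0.130 in edgeR.

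ZDHHC7 (ENSG00000153786.13, chr16:84974175-85011535, minus strand), the palmitoyltransferase next to KIAA0513, stood the other way. Its mRNA was at 71.1, 76.2 and 73.6 CPM with sgCtrl and at 81.7, 78.8 and 81.6 CPM with sgCOX4I1. Every sgCOX4I1 library lay above every sgCtrl library, and #2 was again the nearest to the sgCtrl values. The difference was small, 73.6 ± 2.51 against 80.7 ± 1.66 CPM (SD, n = 3 each) or 0.13 on the log2 scale (SE 0.072, 95% interval -0.021 to 0.29), and did not pass the test (edgeR adjusted p = 0.366).

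KLHL36 (ENSG00000135686.13, chr16:84648511-84667686, plus strand), the outermost of the 8, was at 59.7, 59.3 and 63.8 CPM with sgCtrl and at 52.5, 57.9 and 57.7 CPM with sgCOX4I1. The groups did not overlap, by a margin of less than the spread within either group. Its log2 fold change was -0.12 (SE 0.078, 95% interval -0.29 to 0.046, edgeR adjusted p = 0.457), and -0.074 without sgCOX4I1 #1. For KIAA0513, ZDHHC7 and KLHL36 alike the two-sided exact permutation p was 0.1, the smallest this design allows.

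GINS2 (ENSG00000131153.9, chr16:85676198-85690073, minus strand), the replication gene 109 kb toward the centromere, had the widest spread of the tested neighbours. It was at 20.8, 22.6 and 20.8 CPM in the sgCtrl libraries and at 19.5, 16.8 and 22.0 CPM in the sgCOX4I1 libraries. Its lowest value was in sgCOX4I1 #2, where COX4I1 mRNA was reduced least, and sgCOX4I1 #3 was within the sgCtrl range. The log2 fold change was -0.13 (SE 0.12, 95% interval -0.38 to 0.12, edgeR adjusted p = 0.608; two-sided exact permutation p = 0.3). It stood at -0.041 without sgCOX4I1 #2, at -0.091 without sgCtrl #2 and at -0.23 without sgCOX4I1 #3. GINS2 shares 7 exonic bases, 0.217% of its own, with GSE1 on the other strand.

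USP10 (ENSG00000103194.16, chr16:84699986-84779922, plus strand), the deubiquitinase, did not differ detectably. Its mRNA was at 109.2, 103.7 and 97.9 CPM with sgCtrl and at 102.5, 96.3 and 105.6 CPM with sgCOX4I1, with overlapping ranges. The interval of the log2 difference ran from -0.19 to 0.13 around -0.029 (SE 0.075, edgeR adjusted p = 0.882; two-sided exact permutation p = 0.7). Leaving out sgCtrl #1 or sgCOX4I1 #2 turned the sign of this value, to 0.0095 and 0.0069.

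CRISPLD2 (ENSG00000103196.12, chr16:84819985-84920768, plus strand), the secreted protein, was close to undetected in these leukemia cells. It had 3, 3 and 10 counts in the sgCtrl libraries and 3, 16 and 16 counts in the sgCOX4I1 libraries. At this depth 0 counts would still allow 0.0972 to 0.174 CPM (3 counts per library, counting error only), and 3 of the 6 libraries lay at that limit of 3 counts. Fitted without the filter on low counts, its log2 fold change was 0.86 with a 95% interval from -0.57 to 2.29 (edgeR adjusted p = 0.618; two-sided exact permutation p = 0.6), so neither a rise nor a fall was detectable. The value was 0.30 without sgCOX4I1 #2, the library with the highest CPM, and 0.58 without either sgCtrl #1 or sgCtrl #2, where the usual filter kept the gene. Exons of 2 antisense long noncoding RNAs overlap it by 98 and 206 bases, and neither had a row in the count table. Its paralog CRISPLD1 was expressed at 31.4 ± 2.59 CPM with sgCtrl and 34.3 ± 1.75 CPM with sgCOX4I1 (SD, n = 3 each; edgeR adjusted p = 0.516).

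Read by library number, KIAA0513, KLHL36 and ZDHHC7 were nearest to their sgCtrl partner in #2, as COX4I1 was, and EMC8, GINS2 and USP10 were not. Each sgCOX4I1 library held 25.7%, 75.3% and 28.7% of the COX4I1 level of the sgCtrl library of the same number. The corresponding values for EMC8 were 95.1%, 107% and 98.3%, and for GINS2 93.7%, 74.4% and 106%. KIAA0513 stood at 81.7%, 90.1% and 75.0%, KLHL36 at 87.9%, 97.7% and 90.4%, ZDHHC7 at 115%, 103% and 111%, and USP10 at 93.8%, 92.8% and 108%. In sgCOX4I1 #1 and #3, with roughly equal levels of COX4I1 mRNA, GINS2 and USP10 stood on opposite sides of their partner. The numbers name samples and do not tie a sgCOX4I1 library to a sgCtrl library by source, so these pairs are a description. How many of all genes were nearest in #2 was not counted. For KLHL36 the lead of #2 was smaller against the sgCtrl mean, where the sgCOX4I1 libraries stood at 86.1%, 95.1% and 94.7%.

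To set the tested neighbours among the genes around them, all genes with a start within 2 Mb of that of COX4I1 were listed, the neighbours included. There were 36 in the count table, of which 23 were tested. Of these edgeR called 0, against 2.08% of all genes, and DESeq2 also called 0. At an unadjusted p under 0.05 in edgeR there were 5, against 17.3% of all genes. Apart from COX4I1, 7 of 22 had a log2 fold change above 0 and 15 below, with a median of -0.073, and without TMM factors 8 were above and 14 below with a median of -0.060. These 22 contain the 6 tested neighbours (1 above 0 and 5 below, median -0.075), all but EMC8 on the centromere side. The window therefore does not compare the neighbours with separate genes. The medians were -0.12 for the 15 genes on the centromere side and -0.054 for the 7 on the telomere side, beside -0.0023 for all genes tested. Over the whole chromosome, the window included, 45 tested genes between COX4I1 and the telomere had a median of -0.058 (1 called higher, 1 called lower). The 534 between it and the other end of the chromosome, again with those of the window, had a median of -0.034 (3 called higher, 8 lower). All these medians of chromosome 16 genes lay between -0.12 and -0.034, but a median does not show how far single genes reach. COX4I1 stood at -1.21. The other tested genes of the window ran from -0.29 to 1.06, and the 534 from -1.34 to 1.32. Medians of single libraries varied as well. For the genes toward the telomere they were -0.074, 0.11 and -0.046 in the sgCtrl libraries, each relative to the mean of the other 2. In the sgCOX4I1 libraries they were -0.090, -0.0084 and -0.059, relative to the mean of all 3 sgCtrl libraries. The baselines differ and the smaller one widens the sgCtrl values, so these medians do not compare the groups.

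**Figure D3:**
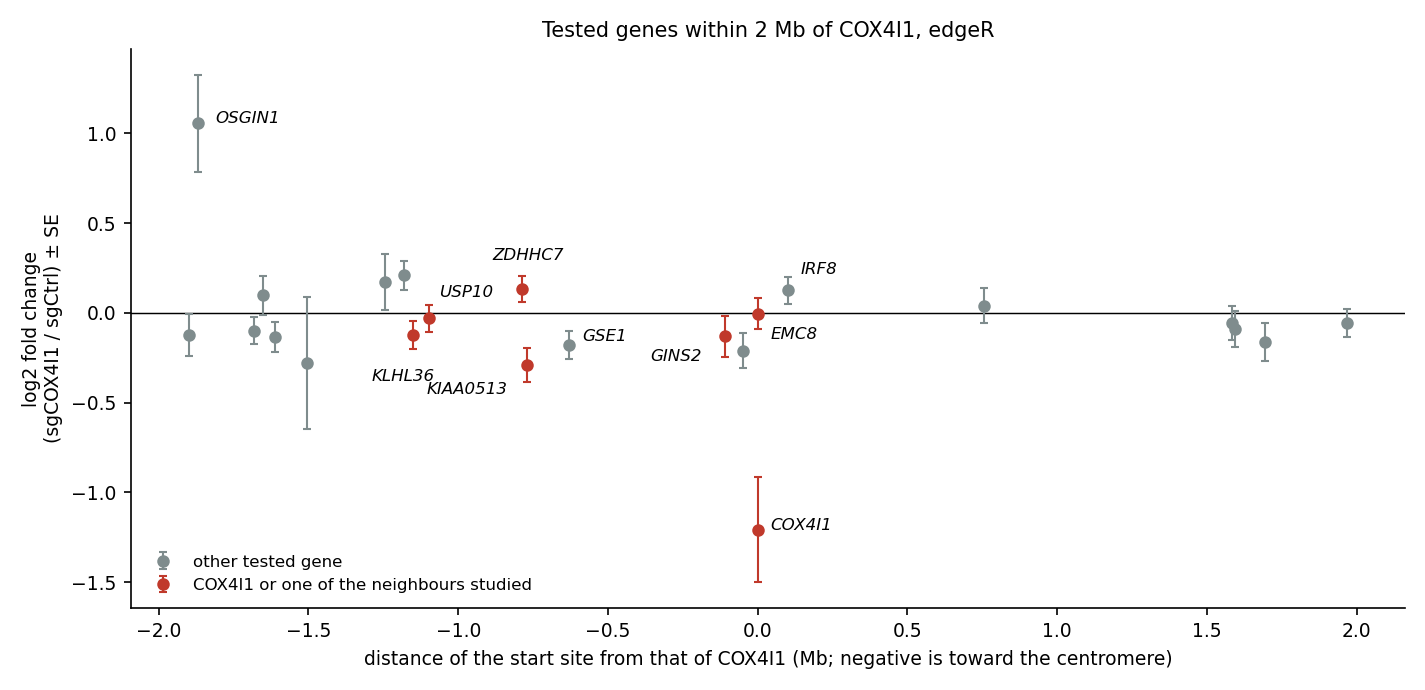
Log2 fold change (sgCOX4I1 against sgCtrl, edgeR) ± SE of the 23 tested genes against the distance of their start from that of COX4I1 in Mb, with COX4I1 and the 6 tested neighbours in red and other genes in grey. COX4I1 lies alone at -1.21, EMC8 at the same position lies at -0.0033, and the other genes lie between -0.29 and 0.21 except OSGIN1 at 1.06.

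IRF8, a transcription factor of the myeloid lineage, is the first tested gene on the telomere side beyond the COX4I1 and EMC8 start sites, 100.5 kb away. It was at 625, 669 and 690 CPM with sgCtrl and at 707, 738 and 720 CPM with sgCOX4I1, without overlap. Its log2 fold change was 0.13 (SE 0.077, edgeR adjusted p = 0.428). GSE1, whose body reaches GINS2 from the centromere side, was at 175 ± 15.1 CPM with sgCtrl and 155 ± 5.70 CPM with sgCOX4I1 (SD, n = 3 each), with overlapping groups and a log2 fold change of -0.18 (SE 0.079, edgeR adjusted p = 0.264). C16orf74, between GINS2 and EMC8, and OSGIN1, an oxidative stress response gene near the edge of the window, were picked after their values were seen. C16orf74 was at 28.8 CPM with sgCtrl and 24.9 CPM with sgCOX4I1 (log2 fold change -0.21, edgeR adjusted p = 0.296). OSGIN1 was at 1.21 ± 0.039 CPM with sgCtrl and 2.54 ± 0.383 CPM with sgCOX4I1 (SD, n = 3 each), without overlap, and did not pass the threshold (log2 fold change 1.06, SE 0.27, edgeR adjusted p = 0.0621), although it did with no filter on low counts and with a filter of 10 counts in every library.

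The partners of the 8 proteins were read from lists of complexes and families. Over all genes tested, 5865 had a log2 fold change above 0 and 5996 below, and edgeR called 2.08%. An unadjusted p under 0.05 was found for 17.3% of all genes, and groups did not overlap for 21.6%. No test was made of the lists. Of the other Complex IV subunits, 13 of 14 were tested, 10 had a log2 fold change above 0 and 3 below, and edgeR called 0, with 0 at an unadjusted p under 0.05. Their median was 0.052 within a range of -0.14 to 0.18, so no other subunit of the enzyme showed a difference like that of COX4I1. NDUFA4 (log2 fold change 0.18, 63.3 ± 11.8 and 71.6 ± 10.9 CPM) and COX5A (0.15, 160 ± 18.4 and 178 ± 12.3 CPM), both nuclear subunits, differed most, and neither passed the test (edgeR adjusted p = 0.525 and 0.408). COX4I2, the paralog that can take the place of COX4I1 in the enzyme, had 0 counts in all 6 libraries, which allows at most 0.0972 to 0.174 CPM.

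The other subunits of the ER membrane protein complex, the partners of EMC8, were all tested. Of the 9, 6 were above 0 and 3 below (7 and 2 without TMM factors), with a median of 0.014. There was 1 at an unadjusted p under 0.05, against 17.3% of all genes, and edgeR called 0. EMC2, a cytosolic scaffold subunit, was at 29.3 ± 2.85 and 34.4 ± 1.55 CPM (log2 fold change 0.23, edgeR adjusted p = 0.222), and EMC3, a membrane insertase subunit, at 33.2 ± 2.07 and 37.7 ± 2.81 CPM (0.18, 0.335; SD, n = 3 each). EMC9, named here only as the paralog of EMC8, was at 4.89 ± 0.953 CPM with sgCtrl and 4.40 ± 0.582 CPM with sgCOX4I1. Neither the partners nor the paralog gave a difference that passed the test.

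Among the other subunits of the CMG helicase, the replication engine that holds GINS2, 8 of 10 had a log2 fold change below 0 (7 without TMM factors). Their median was -0.070. There were 2 at an unadjusted p under 0.05, against 17.3% of all genes, and edgeR called 0. CDC45 was at 42.6 ± 5.45 CPM with sgCtrl and 36.7 ± 4.01 CPM with sgCOX4I1 (log2 fold change -0.21, edgeR adjusted p = 0.339), and MCM7 at 305 ± 17.5 and 265 ± 18.9 CPM (-0.20, 0.208). The groups did not overlap for MCM7, as for 21.6% of all genes. GINS2, at -0.13, lay within the range of its partners, which was -0.21 to 0.072. The 3 USP10 partners were all above 0 with a median of 0.17, while USP10 was at -0.029. G3BP2 was at 96.7 ± 7.70 and 111 ± 8.89 CPM (0.20, edgeR adjusted p = 0.253) and G3BP1 at 159 ± 8.64 and 179 ± 4.68 CPM (0.17, edgeR adjusted p = 0.244). Both had an unadjusted p under 0.05, as 17.3% of all genes did.

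Of the 22 other ZDHHC palmitoyltransferases 18 were tested, with 10 above 0 and 8 below and a median of 0.028. There were 4 at an unadjusted p under 0.05, against 17.3% of all genes, and edgeR called 0. ZDHHC23 (2.45 ± 0.874 and 3.64 ± 0.454 CPM, log2 fold change 0.59, edgeR adjusted p = 0.283) and ZDHHC21 (9.26 ± 1.38 and 12.7 ± 1.43 CPM, 0.46, edgeR adjusted p = 0.121) differed most, both by more than ZDHHC7 at 0.13. CUL3 and RBX1, the scaffold and RING subunit of the ligases that use kelch adaptors such as KLHL36, were at 0.070 and -0.15 on the log2 fold change scale (edgeR adjusted p = 0.740 and 0.619).

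Genes were finally ranked by how closely their log2 CPM followed that of COX4I1 over the 6 libraries, by Pearson's r among the 11324 tested genes whose mean reached 1 CPM. This is a description over 6 points that share 2 groups and their libraries, and no p is attached. The highest r were those of KIF21B (0.997), SSU72 (0.989), UBALD2 (0.988), CHAF1A (0.986) and METRNL (0.984), and 4 of the 5 lowest were those of CEP170 (-0.995), SLK (-0.991), PPM1E (-0.988) and PANK1 (-0.986). Their common shape was a level in sgCOX4I1 #2 that lay nearer to the sgCtrl libraries than #1 and #3 did. COX4I1 has this shape, so it follows from choosing the genes by r and is not a result about them. UBALD2 was at 77.2, 73.2 and 77.2 CPM with sgCtrl and at 55.2, 71.5 and 55.8 CPM with sgCOX4I1. PPM1E, on the other end, was at 5.67, 5.54 and 5.35 CPM with sgCtrl and at 7.88, 5.99 and 7.80 CPM with sgCOX4I1. None of these 9 genes passed the test (edgeR adjusted p from 0.105 for UBALD2 to 0.499 for SSU72). Of the neighbours, KIAA0513 had the highest r to COX4I1, 0.84 (rank 422 of the 11324), followed by KLHL36 at 0.74 (rank 881), EMC8 at 0.30, GINS2 at 0.0064, USP10 at -0.12 and ZDHHC7 at -0.86 (rank 11115, toward the low end). By absolute size the r of ZDHHC7 was the largest of the neighbours. No neighbour was among the 5 genes at either end.

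**Figure D4:**
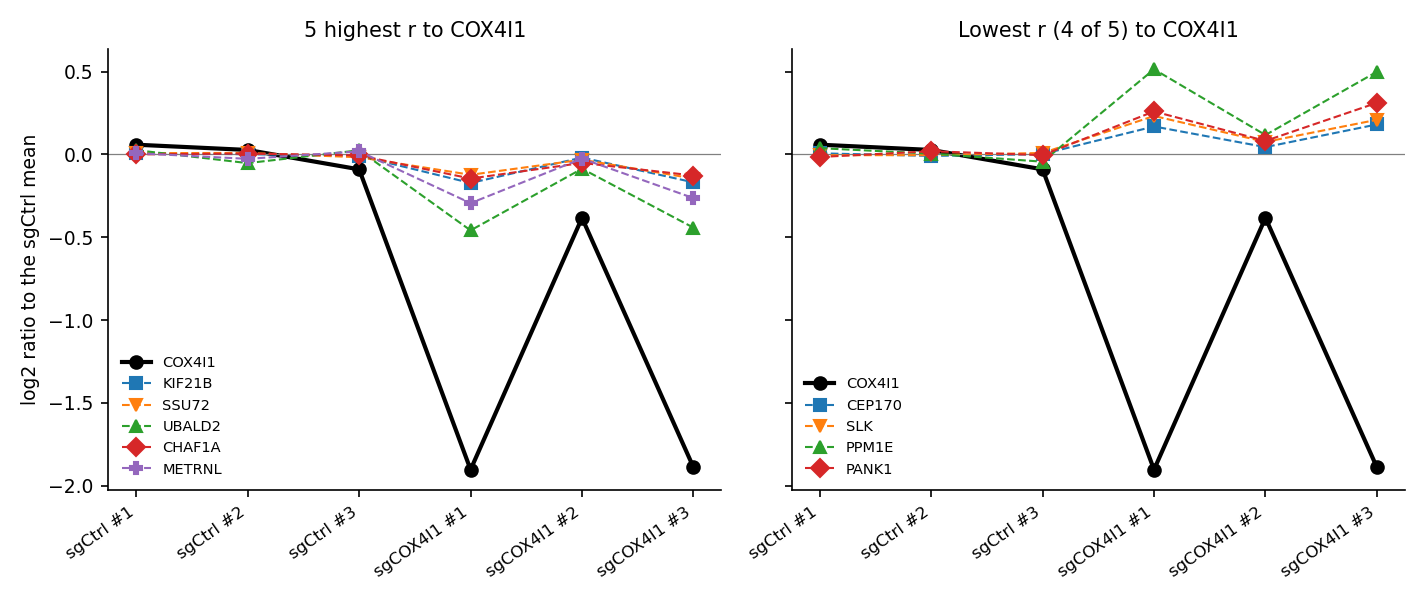
Log2 ratio of each library's CPM to the sgCtrl mean (vertical axes) in the 6 libraries (horizontal axes) for COX4I1 (black) and the 5 genes with the highest r to it (left) or 4 of the 5 with the lowest (right), lines joining the values of 1 gene. In both panels sgCOX4I1 #1 and #3 lie farther from 0 than sgCOX4I1 #2, a shape that follows from choosing the genes by r. COX4I1 itself lies several times farther from 0 than any gene beside it in #1 and #3.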

How the data were processed

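The data are mRNA-seq of 6 Molm13-Cas9 cultures, 3 sgCtrl and 3 sgCOX4I1. The authors deposited whole-number counts per gene symbol without normalization. The submitters' processing notes name bcl2fastq 2.20.0.422, STAR 2.6.0a, edgeR and GRCh38, whereas the study's methods describe alignment with Bowtie2 and counts from RSEM; reads from near-identical copies may have been handled differently by either. Columns were matched to samples by letter (C, control; K, knockout) and number.

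Total counts ranged from 17241014 to 30861943 per library, and replicates differed by more than sampling noise (chi-square per degree of freedom 11.0 to 27.6), so no library was taken as a copy. In R 4.3.3, edgeR 4.0.16 was run with TMM factors (0.987 to 1.01), its filter on low counts and its quasi-likelihood test, with no covariate, and p-values of 11861 genes were adjusted by the Benjamini-Hochberg method, with a threshold of 0.05. Log2 values per library used a prior count of 2. CRISPLD2 did not pass the planned filter and was fitted without it. The within-library ratio was tested by a two-sided exact permutation test. Alternatives were DESeq2 1.42.0, limma-voom (limma 3.58.1), other scalings and filters, the replicate number as a block and each library left out in turn. The scripts were tested on simulated data.

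Positions and exon lengths were taken from GENCODE 44 (GRCh38), where 19162 of 19845 symbols were found, 760 of them through RefSeq synonyms. Promoter windows came from RefSeq (GRCh38.p14). Named were the 8 genes, IRF8 and GSE1 with any called gene of the window, the 5 highest and 5 lowest r to COX4I1, and the 2 largest differences of each list; exceptions are stated, and 1 gene of the low end of r is not reported here. The genes and lists were chosen with earlier results of these data known.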

Additional observations from a re-analysis of the deposited data

How the results depend on the processing

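The COX4I1 log2 fold change was below 0 under all 13 alternatives, from -1.89 to -0.95 with one library left out, where the edgeR adjusted p ran from 3.37e-06 (without sgCOX4I1 #2) to 0.272. It passed the threshold with no filter on low counts (-1.20) and with limma-voom (-1.40). EMC8, near 0, turned above it without TMM factors (0.0098) and with no filter (0.0010), and ran from -0.044 to 0.052 with one library left out; USP10 ran from -0.065 to 0.0095, KIAA0513 from -0.32 to -0.23. GINS2 (-0.23 to -0.041), ZDHHC7 (0.11 to 0.16) and KLHL36 (-0.14 to -0.074) kept their direction and passed no threshold under all 13, and CRISPLD2 (0.30 to 0.91) under the 4 that gave it a value, of which DESeq2 gave no adjusted p; the COX4I1 to EMC8 log2 ratio stayed between -1.86 and -1.11.

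Of the members, 1 was called with no filter, 1 by limma-voom (COX4I1 both times) and 0 to 1 with one library left out. In the 2 Mb window, 2 genes were called with no filter (COX4I1 and OSGIN1), 1 with at least 10 counts in every library (OSGIN1), 1 by limma-voom (COX4I1) and 0 to 1 with one library left out. Over all genes, 428 were called by DESeq2 and 537 with no filter, and 24 (without sgCtrl #2) to 561 (without sgCtrl #1) with one library left out, beside 247; the causes were not tested.

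The replicate numbers paired the samples in part at most. Deviations of same-numbered libraries correlated at 0.38, -0.024 and 0.29, and neither library #2 correlated best with its own number. Crossed, sgCtrl #3 and sgCOX4I1 #1 correlated at -0.38, and sgCtrl #1 and sgCOX4I1 #3 at -0.32. The labels name no batch, and whether same-numbered libraries share one was not tested. With the number as a block, COX4I1 stood at -1.39 (edgeR adjusted p = 1.76e-04) and KIAA0513 at -0.29 (0.0348), 2 members, 4 window genes and 1408 genes in all were called, and the COX4I1 to EMC8 ratio differed by -1.39 (exact permutation over 3 pairs, p = 0.25, the smallest it allows).

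Depth limits CRISPLD2 and COX4I2, which lay at or near 0 counts, and with 3 libraries a group the spread of COX4I1 rests on 1 library, sgCOX4I1 #2. Groups of 3 were too small for a search for outlying libraries.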
